A study of Mus musculus with 40 samples.

Results

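The liver makes long-chain fatty acids by a short chain of enzymes, and 10 genes of that chain were followed here through a 90-day exposure of mice to GenX. The genes were *Acaca* and *Acacb* (acetyl-CoA carboxylases), *Fasn* (fatty acid synthase), *Me1* (malic enzyme), *Elovl6* and *Elovl5* (elongases), and *Scd1*, *Scd2*, *Fads1* and *Fads2* (desaturases). They were chosen by name from the 21448 gene symbols of the table of counts, where 17 of the 30146 probes carry one of these symbols. All 17 probes passed the filter on low counts, and each of the 10 genes was therefore tested. Where a gene has several probes, its value is that of the probe with the most reads over all mice, and the others served as a check.

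The mice were wildtype Crl:CD1(ICR) males and females, an outbred stock, given GenX (a perfluoroalkyl ether acid) by oral gavage in deionized water at 0.1, 0.5 or, as the highest dose, 5 mg/kg bw/d, while controls (0 mg/kg) had the vehicle alone. Each of the 8 groups of sex and dose held 5 mice, each mouse gave 1 library, and RNA came from formalin-fixed, paraffin-embedded liver scraped from a single section. The assay, TempO-Seq, joins pairs of short DNA probes on their target RNA and counts the joined pairs by sequencing, so a value is a number of reads on a probe. The library of female mouse 355 (0.5 mg/kg) held 6711981 reads, under the limit of 9680193 set at 2 SD below the mean, and was left out. Values are counts scaled to the library total (CPM, with TMM factors). Probes capture their targets with different efficiency, so CPM was compared between mice and never between genes.

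In the liver, cytosolic acetyl-CoA is carboxylated to malonyl-CoA by ACACA, and FASN joins malonyl units to palmitate at the cost of NADPH, part of which comes from the malic enzyme ME1. ACACB makes malonyl-CoA at the mitochondrial surface, where it restrains the entry of fatty acids into oxidation. ELOVL6 lengthens palmitate to stearate, SCD1 and SCD2 place the first double bond in these saturated chains, and ELOVL5, FADS1 and FADS2 lengthen and desaturate polyunsaturated fatty acids. SREBP-1c, LXR and ChREBP are the known transcriptional drivers of this program, and several of its genes, *Me1*, *Scd1* and *Fads2* among them, are also known targets of PPARα in rodents.

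The kept libraries held 10341341 to 15562253 reads. The first peak in a library's read counts per probe lay at 20.8 to 44.8 reads. It was taken as the yield of 1 captured molecule, which was not tested. On this reading, used for all counts of molecules here, a library stands for 287241 to 656745 molecules. Males at 5 mg/kg had 483009 to 656745 molecules and control males 287241 to 369995, without overlap, and the ranges in females were 306231 to 339820 and 333648 to 521441. The 5 measured hepatocyte markers (*Alb*, *Apob*, *Ttr*, *Tat* and *Hnf4a*) summed to 6355 to 10873 CPM over all mice. At 5 mg/kg 2 of them were called as lower in males, as was 1 in females. Of all probes tested, 8.28% in males and 3.66% in females were called at this dose, in either direction. The adipocyte markers *Adipoq*, *Lep*, *Plin1* and *Retn* had no read in any control mouse, and with *Cfd* they summed to at most 3.12 CPM in any mouse. A bulk section cannot tell fewer cells of a type from less RNA per cell.

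The promoters of *Fasn* and *Elovl5* are shown because both genes rose in males at 5 mg/kg and their windows lie before the annotated gene (that of *Elovl5* shares 1 base with it), whereas the other windows found run 31 bases or more into it. Each window is the 250 bases before the RefSeq start site on GRCm38.p6, written 5′ to 3′ on the coding strand, with CCAAT boxes and the E-box CACGTG in capitals where they occur on either strand.
*Fasn*, chr11:120824548-120824797, minus strand: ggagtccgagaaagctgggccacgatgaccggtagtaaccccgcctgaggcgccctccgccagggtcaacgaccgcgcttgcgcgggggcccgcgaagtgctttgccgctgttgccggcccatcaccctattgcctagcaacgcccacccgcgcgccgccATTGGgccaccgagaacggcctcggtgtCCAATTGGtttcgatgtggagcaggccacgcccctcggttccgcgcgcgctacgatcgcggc
*Elovl5*, chr9:77917115-77917364, plus strand: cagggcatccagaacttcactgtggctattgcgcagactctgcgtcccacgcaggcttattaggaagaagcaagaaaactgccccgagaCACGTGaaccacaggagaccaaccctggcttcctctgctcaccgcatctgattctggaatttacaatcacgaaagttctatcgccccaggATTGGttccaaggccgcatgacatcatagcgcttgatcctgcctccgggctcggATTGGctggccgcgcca
The *Fasn* window held 3 CCAAT boxes, 2 of them overlapping, and the *Elovl5* window held 2 CCAAT boxes and 1 E-box. Of all 32851 RefSeq windows of this length, 33.8% held a CCAAT box and 6.02% this E-box. The core of the sterol response element (TCACCCCAC) occurred in 0 of the 8 windows found for 7 members and in 0.496% of all windows. A direct repeat of AGGTCA with 1 base between the copies (AGGTCANAGGTCA), the form bound by PPARα with RXR, was in 0 of the 8 windows and 0.0335% of all windows. GC boxes (GGGCGG, in 32.7% of all windows) were found in the first *Me1* window, 3 times, and once in that of *Fads2*. The windows of *Acaca* and *Acacb* and the second of *Me1* lie wholly inside the annotated gene, and that of *Fads2* does with 243 of its 250 bases. Such a window may not hold the main promoter of its gene. A match describes letters only, and no window was in the tables used here for *Scd1*, *Scd2* or *Fads1*. In GENCODE M21 these 3 genes lie with *Fads2* on chromosome 19, *Scd1* at 44394455 to 44407879, *Scd2* at 44293674 to 44306864, *Fads1* at 10182888 to 10196877 and *Fads2* at 10062765 to 10101746. *Fasn* lies with *Acaca* on chromosome 11, and *Elovl5* with *Me1* on chromosome 9.

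Against controls, 7 of the 10 genes rose in males and 4 in females at the highest dose, 5 mg/kg, and 0 fell. In males these were *Acaca*, *Fasn*, *Me1*, *Elovl5*, *Scd1*, *Scd2* and *Fads2*, and in females *Me1*, *Elovl5*, *Scd1* and *Fads2*. Calls rest on edgeR's quasi-likelihood test with a Benjamini-Hochberg adjusted p below 0.10, a rule that called 8.28% of the 17877 probes tested in males and 3.66% in females. DESeq2 called 7 genes in males and 5 in females (9.23% and 4.89% of the 20188 probes it gave a p value). Probes called by edgeR and higher were 4.83% in males and 1.83% in females. The median log2 fold change of the 10 genes was 1.43 in males, where that of all probes was 0.10, and 1.02 in females, where it was -0.01. Every treated mouse lay above every control for 6 genes in males (5.29% of all probes) and 5 in females (1.86%). All 10 genes had a positive log2 fold change in both sexes, with 95% intervals that included 0 for *Acacb* and *Fads1* in males and for *Acacb* and *Elovl6* in females.

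**Figure D1:**
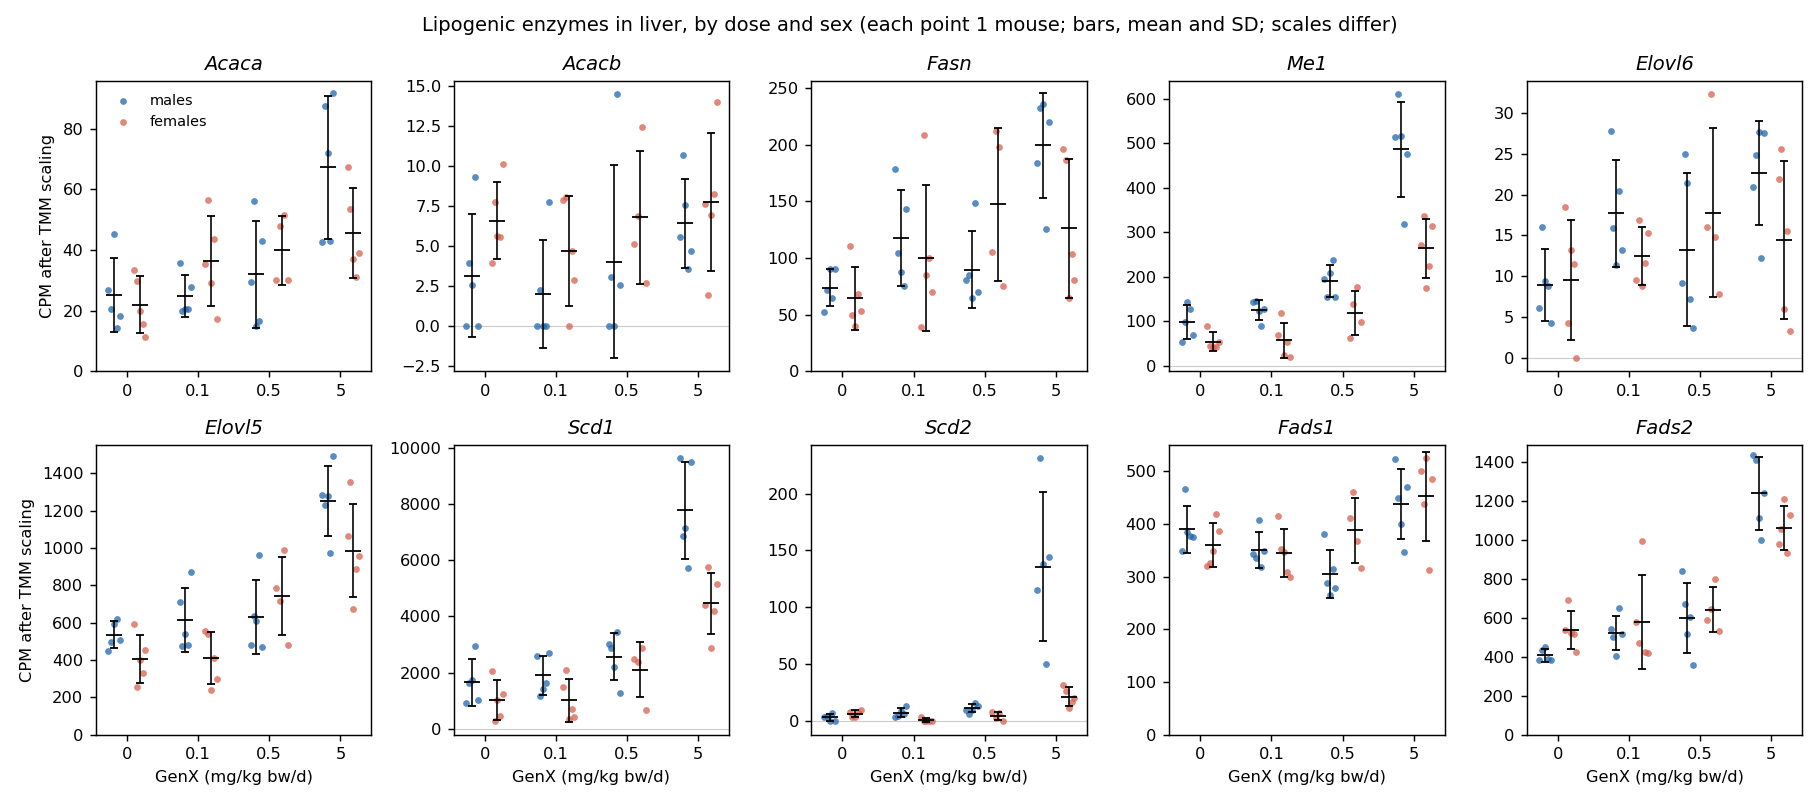
Normalized counts (CPM after TMM scaling, vertical axis, a scale of its own for each gene) of the 10 enzymes in the liver of each mouse, by dose of GenX (mg/kg bw/d, horizontal axis), with males in blue and females in red. Bars give the mean and SD of each group; *Me1*, *Scd1* and *Scd2* in males at 5 mg/kg stand apart from all lower doses.

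*Acaca* encodes the cytosolic carboxylase that commits acetyl-CoA to fatty acid synthesis. In control males its level was 26.9, 20.6, 45.2, 14.3 and 18.2 CPM, and in males at 5 mg/kg 42.5, 87.4, 71.9, 43.02 and 91.7 CPM. Of the 5 treated males, 3 lay above every control. The fitted log2 fold change was 1.43 ± 0.35 (SE), a 2.69-fold rise (edgeR adjusted p = 0.00478). In females the level was 33.3, 29.6, 19.9, 15.6 and 11.2 CPM in controls and 67.3, 53.6, 37.05, 31.01 and 38.97 CPM at 5 mg/kg, with 4 of 5 treated mice above all controls. Its log2 fold change of 1.06 ± 0.35 (SE) just missed the threshold in females (edgeR adjusted p = 0.103), and it passed without control mouse 151 (adjusted p = 0.0540), without control mouse 152 (0.0901) and without treated mouse 454 (0.0868). It also passed in females with DESeq2 (1.08, adjusted p = 0.0473), with DESeq2's size factors in edgeR (adjusted p = 0.0896), with its probes summed (0.0713), in units of molecules (0.0286) and without the filter on low counts (0.0534), but not with all 40 libraries (0.262), only the groups compared (0.109) or its second probe (0.873). The second *Acaca* probe gave 0.99 ± 1.48 (SE) in males, so the call in males rests on the more counted probe.

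*Acacb*, the mitochondrial carboxylase, was near the limit of detection. Its highest level in any mouse was 14.5 CPM, and 2 of 5 control males, 3 of 5 males at 0.1 mg/kg and 2 of 5 males at 0.5 mg/kg had no read. The 5 control males together held 5.2 molecules and the 5 males at 5 mg/kg 19.4. Such sums, here and below, are not scaled, and libraries of males at 5 mg/kg stand for more molecules than those of control males. After scaling, the fitted change of *Acacb* in males was 2.03-fold. A change in *Acacb* was not detectable at this depth, and its log2 fold change at 5 mg/kg had a 95% interval of -1.74 to 3.78 in males and -2.49 to 2.96 in females.

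*Fasn* encodes the multifunctional synthase that builds palmitate. Control males had 52.2, 71.4, 90.04, 65.00 and 90.2 CPM and males at 5 mg/kg 184, 233, 236, 126 and 220.0 CPM, without overlap. The log2 fold change was 1.44 ± 0.33 (SE), or 2.71-fold (edgeR adjusted p = 0.00227). The second *Fasn* probe gave 1.13 ± 0.46 (SE) in males, with an adjusted p of 0.1503 in the same fit. In females the levels were 111, 49.6, 39.9, 67.7 and 53.4 CPM in controls and 196, 187, 64.6, 103 and 80.4 CPM at 5 mg/kg. Only 2 of the 5 treated females exceeded all controls, and the log2 fold change was 0.97 ± 0.33 (SE, edgeR adjusted p = 0.117). Control mouse 151 had the highest *Fasn* of the female controls, and without it the change in females was 1.26 (adjusted p = 0.0281). It also passed without treated mouse 453 (1.14, adjusted p = 0.0477), without treated mouse 455 (1.10, adjusted p = 0.0819), in units of molecules (1.002, adjusted p = 0.0527) and without the filter on low counts (0.96, adjusted p = 0.00799), whereas the second probe gave 0.21 ± 0.45 (SE). In females *Fasn* passed in 3 of 10 fits without 1 mouse and in 2 of 8 other settings.

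*Me1*, the cytosolic malic enzyme, rose in both sexes. Control males had 53.4, 97.5, 143, 127 and 68.4 CPM and males at 5 mg/kg 513, 609.8, 515, 317 and 475 CPM. The corresponding levels in females were 89.9, 43.3, 42.4, 40.9 and 53.4 CPM and 272, 337, 173, 224 and 314 CPM. No treated mouse overlapped a control of its sex. The fitted rise was 4.96-fold in males (95% interval 3.20 to 7.69, edgeR adjusted p = 2.86e-07) and 4.89-fold in females (3.15 to 7.58, adjusted p = 7.53e-07), and the second *Me1* probe gave log2 fold changes of 2.40 ± 0.30 and 2.23 ± 0.30 (SE).

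*Elovl5*, which lengthens polyunsaturated chains, was at 448, 498, 595, 622 and 509 CPM in control males and 1282, 1231, 1277, 970.1 and 1489.9 CPM at 5 mg/kg. In females it was at 591, 254, 399, 329 and 454 CPM in controls and 1062, 1352, 672, 889 and 955 CPM at 5 mg/kg. Treated and control mice did not overlap in either sex. The log2 fold change was 1.23 ± 0.22 (SE) in males (edgeR adjusted p = 5.45e-05) and 1.28 ± 0.22 (SE) in females (adjusted p = 5.97e-05). The second *Elovl5* probe was also called at 5 mg/kg, with 0.65 ± 0.23 (SE) in males (adjusted p = 0.0938) and 1.21 ± 0.23 (SE) in females (adjusted p = 0.000510).

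*Elovl6*, the elongase of palmitate, had 4 probes and few reads. Control males had 6.16, 16.02, 9.44, 8.81 and 4.34 CPM and males at 5 mg/kg 20.9, 24.8, 27.7, 12.3 and 27.5 CPM, with 4 of 5 treated mice above all controls. The log2 fold change of 1.34 ± 0.63 (SE) in males did not pass (edgeR adjusted p = 0.204), but with the reads of its probes summed it was 1.14 (adjusted p = 0.0335), and it also passed in units of molecules (1.26, adjusted p = 0.0510) and with only control and 5 mg/kg males in the fit (1.34, adjusted p = 0.0456). In males *Elovl6* passed in 0 of 10 fits without 1 mouse and in 3 of 8 other settings. Its 3 other probes gave 1.59, 0.006 and 2.00 in males and did not pass in the same fit. In females the groups overlapped widely, at 18.5, 4.29, 13.3, 11.5 and 0 CPM and 21.9, 25.5, 6.06, 15.5 and 3.31 CPM. The change in females was 0.60 ± 0.62 (SE), and the 3 other probes gave -0.04, -0.31 and -0.01.

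*Scd1*, the main hepatic Δ9 desaturase, rose in both sexes. Its levels were 911, 1617, 1736, 2961 and 1008 CPM in control males and 9636, 6845, 7151, 5723 and 9481 CPM at 5 mg/kg. In females they were 2059, 264, 1018, 445 and 1249.8 CPM and 4385, 5749, 2862, 4182 and 5146 CPM. Female controls spread widely, yet the lowest treated mouse exceeded the highest control in both sexes. The rise was 4.72-fold in males (log2 2.24 ± 0.40, SE, edgeR adjusted p = 7.26e-05) and 4.43-fold in females (2.15 ± 0.40, SE, adjusted p = 0.000305).

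*Scd2*, a Δ9 desaturase better known from brain than from adult liver, showed the largest change of the 10 genes in males. Control males held 3.49, 4.09, 0, 6.35 and 0 CPM, or 4.6 molecules over the 5 mice, and males at 5 mg/kg held 115, 232, 138, 49.8 and 144 CPM, or 416.6 molecules. Every treated male lay above every control. The fitted log2 fold change was 5.60 with a 95% interval of 3.70 to 7.50 (edgeR adjusted p = 2.35e-05), and its size depends on the few molecules of the controls. In females the levels were 7.48, 2.92, 3.54, 7.23 and 9.77 CPM in controls and 31.8, 26.2, 11.3, 16.3 and 20.2 CPM at 5 mg/kg. All 5 treated females lay above all controls, but the change of 1.77 ± 0.80 (SE) did not pass in edgeR (adjusted p = 0.258). It did in units of molecules (1.84, adjusted p = 0.0149), without the filter on low counts (1.76, adjusted p = 0.0526) and with only these 2 groups in the fit (1.78, adjusted p = 0.0560). In females *Scd2* passed in 0 of 10 fits without 1 mouse and in 3 of 7 other settings.

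Reads on *Scd2* per 1000 reads on *Scd1* in the same mouse had a median of 2.14 (0 to 3.83) in control males and 15.2 (8.70 to 33.8) in males at 5 mg/kg, without overlap. In females the medians were 7.82 (3.48 to 16.2) and 3.95 (3.90 to 7.26), which overlapped. Another paralog, *Scd3*, was named after its values were seen: it had no read in control males or in either female group, and 3 of 5 males at 5 mg/kg had reads, up to 20.6 CPM. These paralogs are similar in sequence, and how far their probes capture each other's RNA was not tested. Markers of dividing cells (*Mki67*, *Top2a*, *Cdk1* and *Ccnb1*) summed to 23.4 to 70.7 CPM in males at 5 mg/kg and 0 to 2.71 CPM in control males, and to 0 to 33.5 and 0 to 10.6 CPM in females. The 5 stellate cell markers summed to 121 to 143 CPM in males at 5 mg/kg and 57.3 to 124 CPM in control males. They did not move together. From control males to males at 5 mg/kg, mean *Col1a1* was 16.8 and 51.9 CPM, *Lrat* 4.36 and 13.7, and *Dcn* 45.7 and 50.7. Mean *Des* was 8.75 and 4.04 CPM and *Reln* 13.5 and 8.32. In males at 5 mg/kg, 1 marker of dividing cells and 1 of stellate cells were called as higher (4.83% of all probes). The part of these cells in the *Scd2* reads was not tested.

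**Figure D2:**
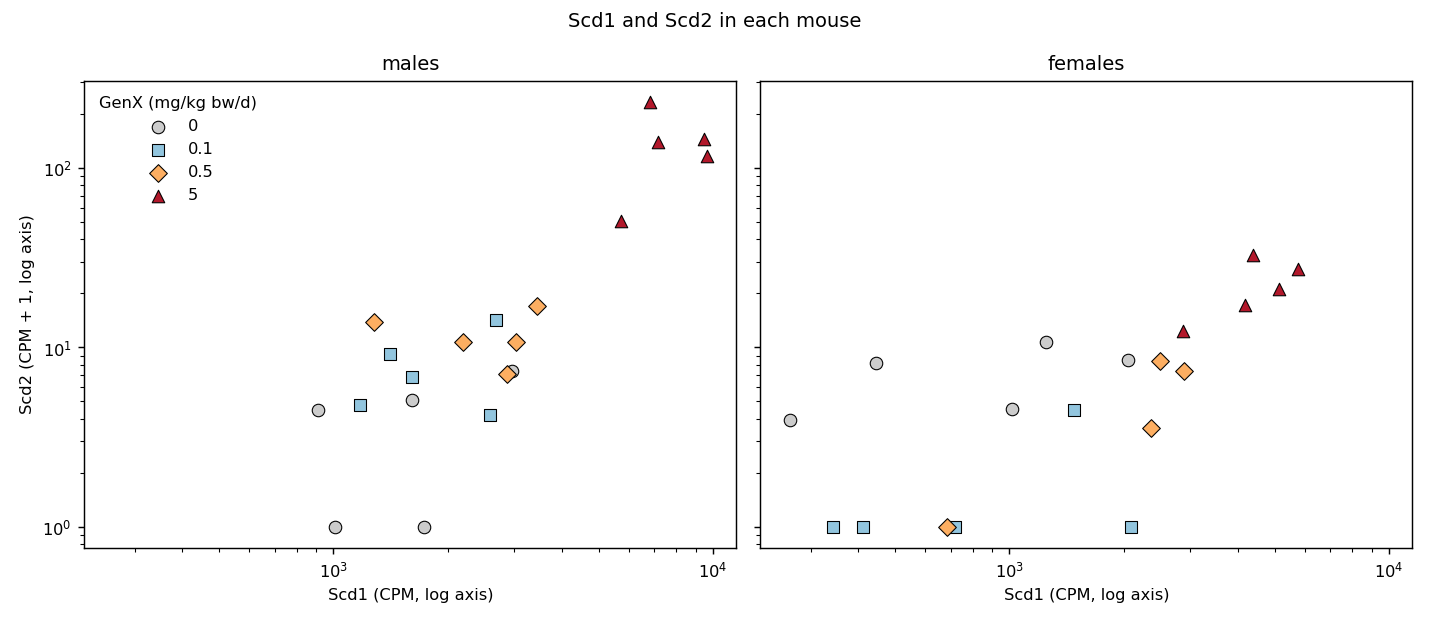
*Scd1* (CPM, horizontal log axis) against *Scd2* (CPM + 1, vertical log axis) in each mouse, males on the left and females on the right, with a symbol for each dose (mg/kg bw/d). Points at 1 on the vertical axis are mice with no *Scd2* read; males at 5 mg/kg lie between 49.8 and 231.6 CPM of *Scd2*, above every other mouse.

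*Fads2*, the Δ6 desaturase, was at 382, 434, 453, 387 and 383 CPM in control males and 1436, 1413, 1112, 1002 and 1244 CPM at 5 mg/kg. In females it was at 539, 691, 523, 516 and 424 CPM in controls and 982, 1056, 1210.1, 934 and 1130.2 CPM at 5 mg/kg. Neither sex showed an overlap, and the rise was 3.04-fold in males (edgeR adjusted p = 5.2e-09) and 1.97-fold in females (adjusted p = 0.000272). When mouse 355 was kept in, the call in females was lost (adjusted p = 0.149), although its log2 fold change was still 0.98.

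*Fads1*, the Δ5 desaturase, was at 348, 466, 385, 377 and 375 CPM in control males and 523, 449, 401, 347 and 469.9 CPM at 5 mg/kg. Its log2 fold change in males was 0.17 with a 95% interval of -0.11 to 0.45 (edgeR adjusted p = 0.678). In females it was 0.33 with an interval of 0.05 to 0.61 (adjusted p = 0.258), and 4 of 5 treated mice exceeded all controls; it passed in units of molecules (0.34, adjusted p = 0.0922). The intervals for *Fads2* ran from 1.23 to 1.98 in males and from 0.61 to 1.35 in females. The difference between the genes was not tested.

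At 0.5 mg/kg, 0 of the 10 genes passed in males and 0 in females, where edgeR called 2.38% and 0.213% of all probes (1.74% and 0.185% as higher). At an unadjusted p below 0.05 there were 4 genes in males and 5 in females (18.1% and 10.2% of all probes), and DESeq2 called 1 in each sex (4.28% and 1.5%). In males *Me1* came nearest, with a log2 fold change of 0.95 ± 0.30 (SE, edgeR adjusted p = 0.111), and all 5 treated males, at 195, 153, 209, 238 and 154 CPM, lay above all controls. *Me1* was the 1 gene of the 10 without overlap at this dose in males (2.18% of probes), and there were 0 in females (0.912%). It passed without control mouse 103 (1.13, adjusted p = 0.0672), with its second probe (1.06, adjusted p = 0.0459), with its probes summed (0.99, adjusted p = 0.0484), in units of molecules (0.88, adjusted p = 0.0474), with only the 2 groups in the fit (0.94, adjusted p = 0.0410) and without the filter on low counts (0.95, adjusted p = 0.00429). In *Fads2* the change in males was 0.55 ± 0.18 (SE, adjusted p = 0.132), and it passed without treated mouse 305 (0.69, adjusted p = 0.0360), in units of molecules (0.49, adjusted p = 0.0996) and without the filter (0.55, adjusted p = 0.0223). For *Fads1* the change was -0.35 ± 0.14 (SE, edgeR adjusted p = 0.258), and it passed with DESeq2 (-0.41, adjusted p = 0.0553) and in units of molecules (-0.42, adjusted p = 0.0470). *Scd2* had 6.10 to 15.96 CPM in males at 0.5 mg/kg, above the highest control in 4 of 5 mice, with a log2 fold change of 1.96 ± 0.82 (SE, edgeR adjusted p = 0.259). It passed without the filter (adjusted p = 0.0346) and in units of molecules (adjusted p = 0.0952). Among the fits without 1 mouse, *Me1* and *Fads2* each passed in 1 of 10, and *Fads1* and *Scd2* in 0 of 10. Among the other settings, *Me1* passed in 5 of 8, and *Fads2*, *Fads1* and *Scd2* each in 2 of 7.

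In the 4 females at 0.5 mg/kg, the levels of *Fasn* (105, 212, 198 and 75.3 CPM), *Me1* (62.4, 139, 177 and 98.6 CPM) and *Elovl5* (786, 714, 991 and 482 CPM) each overlapped the controls. Their log2 fold changes were 1.20 ± 0.34, 1.14 ± 0.32 and 0.87 ± 0.23 (SE), with edgeR adjusted p values of 0.259, 0.229 and 0.125. The median over the 10 genes was 0.87 in females and 0.45 in males, beside 0 for all probes in males and -0.00145 in females. Control mouse 151 had the highest level of all 3 genes among the female controls, and without it the changes were 1.49, 1.40 and 1.05 and each passed (adjusted p = 0.05998, 0.0487 and 0.0302). Without treated mouse 354, *Fasn* (1.42, adjusted p = 0.0860) and *Elovl5* (1.03, adjusted p = 0.0359) passed, and without treated mouse 351, *Me1* did (1.35, adjusted p = 0.0616). DESeq2 called *Elovl5* alone (0.87, adjusted p = 0.0613). All 3 passed in units of molecules (adjusted p = 0.0950, 0.0779 and 0.0581), and without the filter on low counts all 3 and *Scd1* did (adjusted p from 0.000371 to 0.00293). *Fasn*, *Me1* and *Elovl5* each passed in 2 of 9 fits without 1 mouse. Of 8 other settings, *Fasn* and *Me1* each passed in 2 and *Elovl5* in 3. In mouse 355, left out for its depth and scaled here with all 40 libraries, *Fads1* was at 11.4 CPM, *Fads2* at 60.3, *Me1* at 11.4 and *Elovl5* at 38.4 CPM. These levels lie below all female controls, as do those of *Fasn* (40.2 CPM) and *Acacb* (no read), while *Acaca*, *Elovl6*, *Scd1* and *Scd2* lay within the controls' range.

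At 0.1 mg/kg, 0 of the 10 genes passed in edgeR in either sex (0.0336% of all probes in males and 0% in females). Unadjusted p values were below 0.05 for 1 gene in males and 2 in females (13.6% and 10.3% of all probes), and DESeq2 called 0 in both (1.36% and 0.822%). The median log2 fold change of the 10 genes was 0.28 in males and 0.043 in females, beside 0 for all probes in both. *Fasn* was at 178, 104, 87.6, 75.5 and 143 CPM in males, with 3 of 5 mice above all controls and a log2 fold change of 0.68 ± 0.33 (SE, edgeR adjusted p = 0.350). In females, *Scd2* had reads in 1 of 5 mice at 0.1 mg/kg (1.5 molecules in all) and in 5 of 5 controls (12.3 molecules), with an edgeR adjusted p of 0.474.

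**Figure D3:**
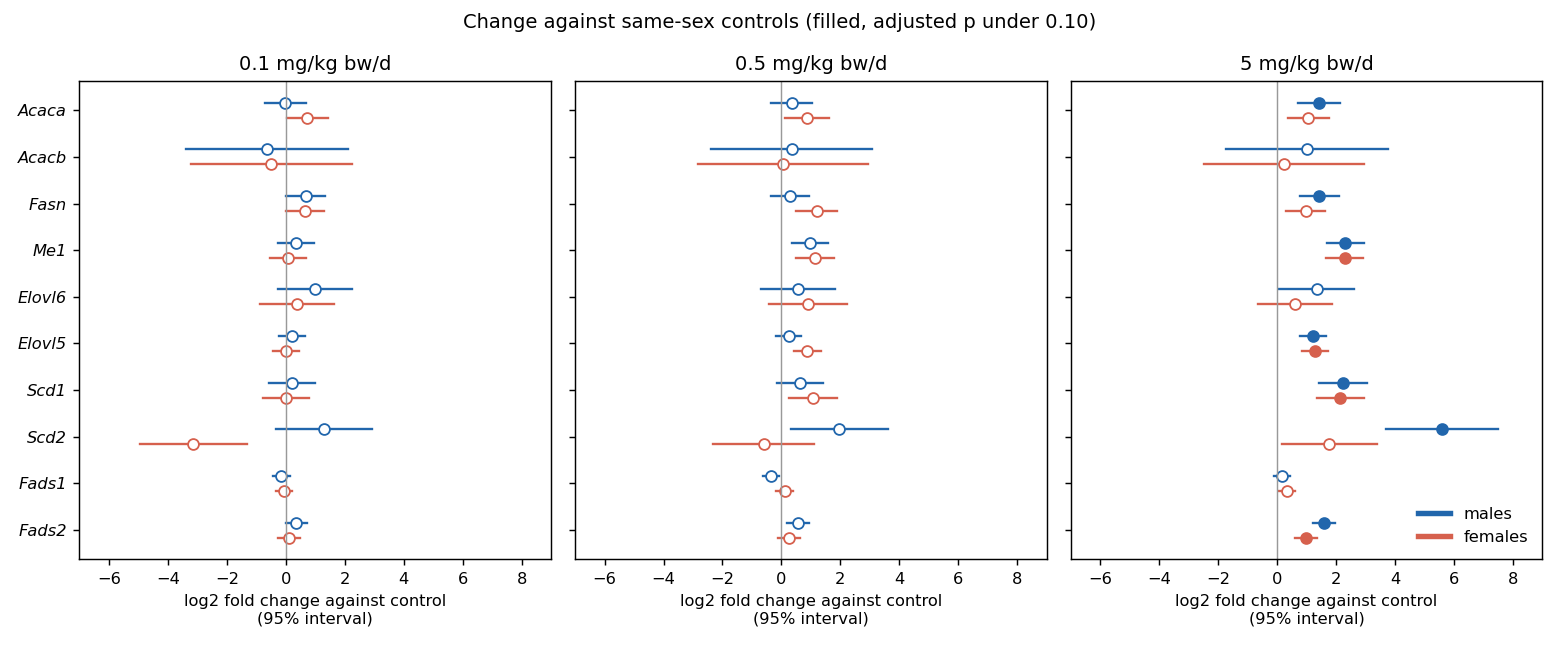
Log2 fold change against same-sex controls (points, with 95% intervals as lines, horizontal axis) of the 10 enzymes at the 3 doses of GenX (panels, mg/kg bw/d), with males in blue and females in red. Filled points passed at an adjusted p below 0.10; the lower doses hold 0, and the highest dose holds 7 for males and 4 for females.

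The step from 0.5 to 5 mg/kg was tested directly. In males 7 genes were higher at 5 than at 0.5 mg/kg (2.64% of probes called, 0.973% higher): *Fasn*, *Me1*, *Elovl5*, *Scd1*, *Scd2*, *Fads1* and *Fads2*. *Scd2* rose by 3.64 ± 0.86 (SE, edgeR adjusted p = 0.00887) and *Scd1* by 1.60 ± 0.40 (SE, adjusted p = 0.0147) on the log2 scale. *Fads1* rose by 0.52 ± 0.14 (SE, adjusted p = 0.0318), from 381, 288, 265, 314 and 278 CPM to the levels given above. In females 2 genes were higher (1.23% of probes called, 0.571% higher), *Me1* by 1.15 ± 0.33 (SE, adjusted p = 0.0849) and *Fads2* by 0.72 ± 0.19 (SE, adjusted p = 0.0540). *Fasn* did not differ beyond its spread in females, at -0.23 with a 95% interval of -0.91 to 0.46. The count in females was 0 when mouse 351, 352, 354 or 455 was left out, and 1 without mouse 451, 452 or 453. In males *Fasn* lost its call without mouse 301, 303, 305, 402 or 403 and with its second probe (0.57, adjusted p = 0.824), and *Fads1* lost its call without mouse 303. With all 40 libraries 2 genes passed in males, *Scd1* and *Scd2*.

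The change from controls was compared between the sexes, and 0 of the 10 genes passed in edgeR at any dose. From the lowest dose to the highest, 0%, 0.274% and 1.04% of probes were called. In the same order, unadjusted p values below 0.05 were found for 1, 3 and 2 genes (8.41%, 10.9% and 12.4% of all probes), and DESeq2 called 0 at each dose (1.07%, 1.93% and 2.69%). For *Scd2* at 5 mg/kg the change in males exceeded that in females by 3.83 on the log2 scale, with a 95% interval of 1.52 to 6.13 (edgeR adjusted p = 0.123). For *Fads2* the excess in males was 0.63, with an interval of 0.11 to 1.14 (adjusted p = 0.270). For *Me1*, *Elovl5* and *Scd1* the difference was 0.02, -0.05 and 0.09, with intervals of -0.84 to 0.88, -0.67 to 0.56 and -1.01 to 1.19. *Acaca* and *Fasn* were called in males and not in females, but this does not show a difference between the sexes: the excess in males was 0.37 (-0.61 to 1.35) and 0.46 (-0.46 to 1.38). Without control mouse 104, *Scd2* was called at 5 mg/kg.

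Between control males and control females, 0 of the 10 genes passed in edgeR (3.49% of probes called). Control males had 97.9 ± 37.99 CPM of *Me1* (SD, n = 5) and control females 53.99 ± 20.6 CPM, a log2 difference, females minus males, of -0.86 ± 0.30 (SE, adjusted p = 0.152). *Fads2* was at 407.8 ± 33.3 and 538.6 ± 96.0 CPM (SD), a difference of 0.40 ± 0.18 (SE, adjusted p = 0.245). Unadjusted p values were below 0.05 for these 2 of the 10 genes and for 18.9% of all probes, a similar share. DESeq2 called 0 (5.41% of its probes), and the second *Elovl5* probe was called as lower in females (-0.85 ± 0.23, SE, adjusted p = 0.0322). Without control mouse 101 or 151, *Me1* was called.

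Mice of the same sex and dose still differed, and pairs of enzymes were compared over these differences. Log2 CPM was centred on the mean of each of the 8 groups, and the 45 pairs of genes were compared over the 39 mice. Pearson's r was positive in 39 pairs and passed in 14, all of them positive, at an adjusted p below 0.10 over the 45 pairs (two-sided permutation within groups). The share of other gene pairs that would pass over the same libraries was not computed, so these counts do not set the enzymes apart. Pairs with *Acacb* or *Scd2* are among the 14, and these genes had no read in several mice, so their r rests on few molecules. The closest pair was *Elovl5* and *Scd1*, with r = 0.869 and Spearman's rho = 0.874 (permutation p = 1e-05 for each, the smallest that 100000 permutations can give, adjusted p = 0.000450). It was 0.871 without the 2 mice farthest from the median of *Elovl5*, 0.733 in the 20 males (permutation p = 0.000820, adjusted p = 0.0369) and 0.934 in the 19 females (permutation p = 1e-05, adjusted p = 0.000450). *Me1* followed both, with r = 0.690 for *Scd1* (rho = 0.637, permutation p = 0.000170, adjusted p = 0.00255) and 0.684 for *Elovl5* (rho = 0.672, permutation p = 2e-05, adjusted p = 0.000450), and without 2 mice these were 0.622 and 0.669.

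*Fasn* varied with *Elovl5* (r = 0.561, rho = 0.568, permutation p = 0.00230, adjusted p = 0.0259) and with *Me1* (r = 0.543, rho = 0.523, permutation p = 0.00479, adjusted p = 0.0423), and without 2 mice these were 0.695 and 0.587. *Acaca* varied with *Fasn* at r = 0.447 (rho = 0.478, permutation p = 0.00804, adjusted p = 0.0459), or 0.467 without 2 mice. In the 20 males *Fasn* and *Elovl5* had r = 0.763 (permutation p = 0.00180, adjusted p = 0.0405), and in the 19 females 0.474 (permutation p = 0.0719, adjusted p = 0.266). *Fads2* passed with 0 of the other 9 genes, and its r with *Scd1* was 0.023 over the 39 mice. *Fads2* rose at 5 mg/kg in both sexes, as *Scd1* did, but no relation of the pair passed among mice of a group (in the 20 males r = 0.529, permutation p = 0.0226, adjusted p = 0.169).

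**Figure D4:**
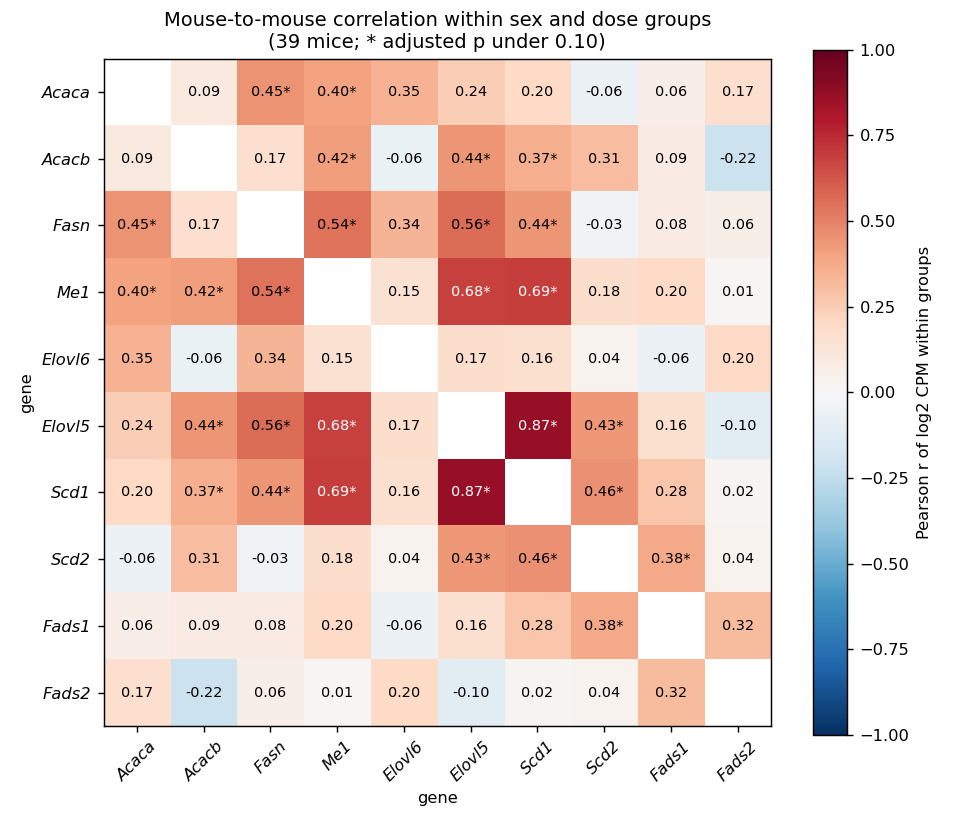
Pearson's r between the log2 CPM of each pair of enzymes (axes) over 39 mice, after subtracting the mean of each sex and dose group, from blue (negative) to red (positive). Asterisks mark the 14 pairs with an adjusted permutation p below 0.10, and the block of *Fasn*, *Me1*, *Elovl5* and *Scd1* holds 0.44 to 0.87. Values for *Acacb* and *Scd2* rest on few molecules.

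Among 3891 other genes with a mean of at least 20 CPM, the 2 most like each member over the same centred values of 39 mice were named, as a description with no test. For *Fasn* these were *Acly*, which supplies cytosolic acetyl-CoA (r = 0.842), and *Gpam*, the first step of glycerolipid synthesis (r = 0.808). *Elovl5* also had *Acly* first (r = 0.733), followed by *Aadac*, an esterase (r = 0.728). For *Scd1* they were *Acsl5*, an acyl-CoA synthetase (r = 0.755), and *Idh1*, an NADPH-forming isocitrate dehydrogenase (r = 0.692). *Me1* had *Sc5d*, a sterol desaturase (r = 0.702), and *Abcd3*, a peroxisomal fatty acid transporter (r = 0.677). *Acaca* had *Mid1ip1*, which activates acetyl-CoA carboxylase (r = 0.665), and *Hnrnpab* (r = 0.619). For *Scd2*, *Fads1* and *Fads2* the highest r was 0.655 (*Ssb*), 0.660 (*Trak1*) and 0.596 (*Upp2*), and for *Acacb* and *Elovl6* 0.588 (*D11Wsu47e*) and 0.675 (*Opa1*). The genes share libraries and scaling, and r values over so many genes have a high maximum.

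The other genes of the pathway were counted in 5 lists. Of 10 genes that supply carbon or NADPH, 0 passed in edgeR at 0.5 or 5 mg/kg in either sex. At 5 mg/kg 3 genes in each sex had an unadjusted p below 0.05 (22.1% of all probes in males and 17.9% in females). DESeq2 called 0 in males and 1 in females (9.23% and 4.89% of its probes). At 0.5 mg/kg there were 2 genes in each sex with an unadjusted p below 0.05 (18.1% and 10.2% of all probes). DESeq2 called 2 in males and 0 in females (4.28% and 1.5% of its probes). At the highest dose, the median log2 fold change over the 9 genes read in both groups was 0.31 in males and 0.33 in females. Of 6 genes for other steps of fatty acid synthesis, mostly the mitochondrial form, 5 were tested and 0 passed in edgeR or DESeq2, with an unadjusted p below 0.05 for 1 gene in males at each of these doses and for 0 and 1 genes in females at 0.5 and 5 mg/kg.

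The other elongation enzymes changed in both directions in males. At 5 mg/kg, 3 of the 9 tested rose and 3 fell in males (8.28% of all probes called), and 2 rose and 0 fell in females (3.66%). At 0.5 mg/kg, 1 rose and 1 fell in males (2.38%). *Hacd3*, a dehydratase of the elongation cycle, had 77.6 to 112 CPM in control males, 172 to 201 CPM at 0.5 mg/kg and 190 to 360 CPM at 5 mg/kg, with no overlap with controls at either dose. It rose by 1.003 ± 0.21 (SE, edgeR adjusted p = 0.00392) at 0.5 mg/kg and 1.46 ± 0.22 (SE, adjusted p = 1.76e-06) at 5 mg/kg in males, and by 0.84 ± 0.21 (SE, adjusted p = 0.0133) at 5 mg/kg in females, on the log2 scale. *Elovl3*, an elongase of saturated and monounsaturated chains, moved against *Elovl5*: it had 561 to 2029 CPM in control males and 40.4 to 233 CPM at 5 mg/kg, a difference of -3.32 ± 0.58 on the log2 scale (SE, adjusted p = 3.79e-05). In females it was at 10.04 to 78.3 CPM in controls and 6.77 to 41.3 CPM at 5 mg/kg. *Hsd17b12*, the keto reductase of the cycle, rose in males at 5 mg/kg by 0.75 ± 0.19 (SE, adjusted p = 0.00586) and in females by 0.82 ± 0.19 (SE, adjusted p = 0.00456), and *Hacd1* in males by 0.96 ± 0.23 (SE, adjusted p = 0.00451).

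Other desaturation enzymes and electron donors numbered 9, of which 8 were tested. In females at 5 mg/kg, 1 rose (3.66% of all probes called), *Cyb5b*, an outer-membrane cytochrome b5, by 0.52 ± 0.13 (SE, edgeR adjusted p = 0.0109). In males 0 passed at 0.5 or 5 mg/kg (2.38% and 8.28% of all probes called). At these doses 4 and 5 genes in males had an unadjusted p below 0.05 (18.1% and 22.1% of all probes), and DESeq2 called 1 and 2 (4.28% and 9.23%). Of 21 regulators of lipogenesis, 0 rose in edgeR or DESeq2 at 0.5 or 5 mg/kg, and 1 fell in each sex at 5 mg/kg: *Rxra* in males (-0.35 ± 0.12, SE, adjusted p = 0.0821) and *Insig2*, which retains SREBP in the endoplasmic reticulum, in females (-0.74 ± 0.23, SE, adjusted p = 0.0787). Their median log2 fold change at 5 mg/kg was -0.38 in males and 0.19 in females. DESeq2 called 4 as lower in males, *Scap*, *Insig2*, *Mlxipl* and *Rxra* (9.23% of its probes called), and *Insig2* alone in females (4.89%).

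**Figure D5:**
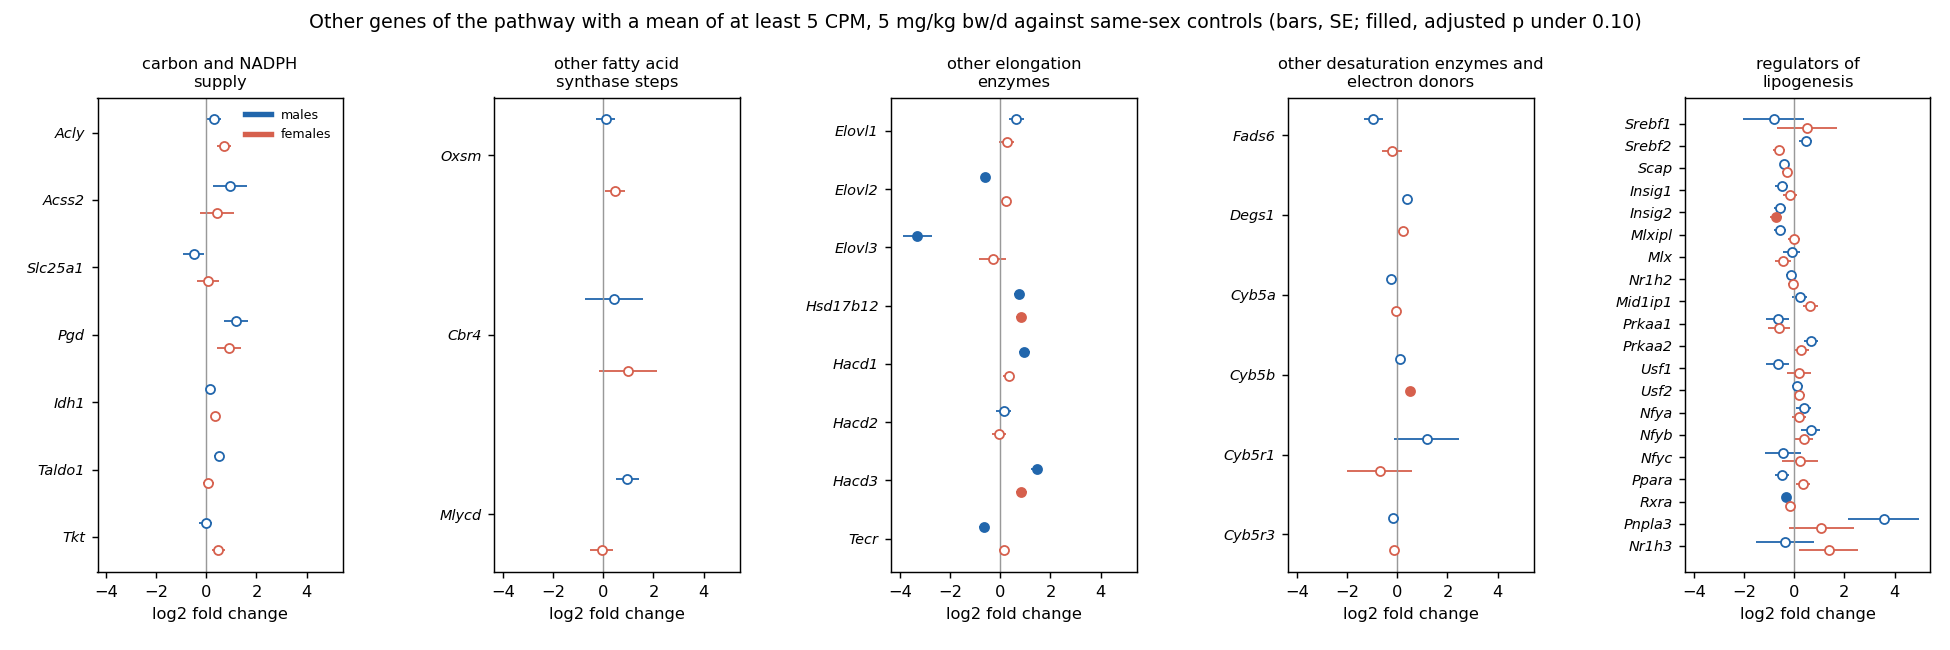
Log2 fold change at 5 mg/kg bw/d against same-sex controls (points, with bars for the SE) of the other genes of the pathway in 5 lists, with males in blue and females in red, for genes with a mean of at least 5 CPM in a group compared. Filled points passed at an adjusted p below 0.10. In males *Elovl2*, *Elovl3*, *Tecr* and *Rxra* lie left of 0 and *Hsd17b12*, *Hacd1* and *Hacd3* right of it. In females *Hsd17b12*, *Hacd3*, *Cyb5b* and *Insig2* are filled. *Scd3*, with no read in controls, is not drawn.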

How the data were processed

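The authors hybridized TempO-Seq probes to RNA from a single 4 to 6 µm liver section per mouse and deposited raw read counts per probe, not normalized, in 1 table of 30146 probes and 40 libraries. Per the labels, bcl2fastq 2.17.1.14 and Bowtie were used with build mm10. The probes' sequences were not used here.

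Counts were analysed in R 4.3.3. The design followed the study's methods in comparing each dose with controls of the same sex at a false discovery rate of 10% and in leaving out libraries more than 2 SD below the mean depth. Counts were scaled by TMM, probes with low counts were removed by filterByExpr (17877 kept), and edgeR 4.0.16 fitted its quasi-likelihood model to 39 libraries and 8 groups at once. In all 12 contrasts were tested, each adjusted by Benjamini-Hochberg over all probes: 6 doses against controls, 3 differences between the sexes, 2 steps from 0.5 to 5 mg/kg and 1 comparison of controls. CPM for correlations was on a log2 scale with a prior count of 2, and permutations within groups numbered 100000. DESeq2 1.42.0 without that filter (20188 probes with a p value), its size factors, no filter, all 40 libraries, summed or second probes, counts in molecules, a fit to only the groups compared and leaving out each mouse were alternatives. The scripts were tested on simulated data. The share of wrong calls was checked for edgeR at the spread of the real probes. For DESeq2 it was checked only at a moderate spread set for all probes, as at the real spread DESeq2 also called probes near 0.

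All 10 enzymes are named. Other pathway genes are named if called at 0.5 or 5 mg/kg, up to 4 a list by size of change. The 2 genes most like each enzyme are also named, and *Scd3* and *Pnpla3* are exceptions. The enzymes and lists were chosen with earlier results of these data known. Mice were housed individually and each gave 1 library, so replicates are separate animals. If the first peak of the read counts is 1 molecule, a library stands for 287241 to 656745 molecules, and a gene with few molecules has a wide interval.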

Additional observations from a re-analysis of the deposited data

Results flagged for a closer look

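In 5 of 80 groups of 1 gene and 4 or 5 mice, a single mouse lay far from the others by Dixon's test; chance flags about 1 in 20 groups, or 4 of 80. In males at 0.5 mg/kg, mouse 304 had 14.5 CPM of *Acacb*, where the next had 3.09, and 148 CPM of *Fasn*, where the next had 84.7. Control female 151 had 89.9 CPM of *Me1*, where the next had 53.4. In females at 0.1 mg/kg, mouse 251 had 3.50 CPM of *Scd2*, where the others had no read, and mouse 253 had 997 CPM of *Fads2*, where the next had 581.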

How the results depend on the processing

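Of 686 alternative values of the log2 fold changes at 0.5 and 5 mg/kg, 624 kept their direction and side of the threshold, 47 newly passed it, 3 no longer passed and 12 changed sign. In males at 5 mg/kg, 7 to 8 enzymes passed under the other settings and 5 with second probes, and 7 without any 1 mouse. The number passing changed by more than 1.5 times in these cases, and the cause was not tested. At 0.5 mg/kg in males it was 1 with DESeq2, summed probes, only the groups compared or second probes, 3 without the filter and 4 in molecules (0 to 1 without 1 mouse; *Me1* without 103, *Fads2* without 305). At 0.5 mg/kg in females it was 1 with DESeq2, 4 without the filter and 3 in molecules (0 to 3 without 1 mouse; *Fasn*, *Me1* and *Elovl5* without 151, *Me1* without 351, *Fasn* and *Elovl5* without 354). At 5 mg/kg in females it was 7 without the filter and 8 in molecules (4 to 6 without 1 mouse; 6 without 151). Without the filter it was 1 at 0.1 mg/kg in females and 1 for the difference between the sexes at 0.1 mg/kg (each 0 to 1 without 1 mouse, 1 without 251), in each case *Scd2*. The difference at 5 mg/kg gave 1 without the filter and 1 in molecules (0 to 1 without 1 mouse, 1 without 104), in each case *Scd2*. The step from 0.5 to 5 mg/kg gave 2 with all 40 libraries in males (5 to 8 without 1 mouse), and 4 without the filter and 1 with all 40 libraries in females (0 to 2 without 1 mouse; 0 without 351, 352, 354 or 455, 1 without 451, 452 or 453). Control females against control males gave 2 without the filter, 1 in molecules and 1 with second probes (0 to 1 without 1 mouse; *Me1* without 101 or 151). Correlated pairs numbered 4 in males alone and 5 in females alone, which hold fewer mice.

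Signs changed at 0.5 mg/kg for *Acaca* (-1.82) and *Elovl5* (-0.21) in males with second probes, for *Acacb* in males without mouse 304 (-1.15 to 1.31 without 1 mouse), for *Acacb* (-0.29), *Fads1* (-0.21) and *Fads2* (-0.044) in females with all 40 libraries, and for *Acacb* in females without 1 mouse (-0.42 to 0.31). At 5 mg/kg in females they changed for *Elovl6* with a second probe (-0.045) and for *Acacb* without mouse 455 (-0.090 to 0.48 without 1 mouse).

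Over all probes, calls at 0.5 mg/kg numbered 425 in males, 865 with DESeq2, 739 in molecules and 91 with all 40 libraries, and 38 in females, 302 with DESeq2, 108 without the filter, 99 in molecules, 22 with only the groups compared and 8 with all 40 libraries. At 5 mg/kg they numbered 1480 in males, 834 with all 40 libraries, and 655 in females, 988 with DESeq2 and 238 with all 40 libraries. At 0.1 mg/kg in males they numbered 6, 274 with DESeq2, 40 without the filter and 0 in molecules or with all 40 libraries. No paired analysis was possible because each animal number occurs in 1 group only. *Acacb*, *Elovl6* and, in controls, *Scd2* rest on few molecules, and a change in them was detectable only if large.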
